A study of Mus musculus with 6 samples.

Results

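A divergent promoter is a stretch of DNA from which a gene on the minus strand and a gene on the plus strand start close together and are read in opposite directions. Peaks of Plakoglobin and of β-catenin at such promoters were collected from the deposited peak lists of 6 ChIP-chip arrays. A peak was taken when the list placed it under accessions of both strands whose start sites lay within 1000 bp of each other. The rule used start sites and strands and no measured value. It held for 907 of 9671 peaks, 9.38% of the total, and these fell on 636 loci, where a locus is a set of start sites linked by such pairs.

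The cells were C57BL/6J mouse keratinocytes, taken to confluency and then held for 4 days in high-calcium medium, which begins terminal differentiation. Both groups shared the strain, the medium and the crosslinking with 2 mM di-succinimidyl-glutarate and 1% formaldehyde, and differed only in the antibody, to Plakoglobin (3 arrays, numbered 1 to 3) or to β-catenin (3 arrays, numbered 1 to 3). ChIP DNA (Cy5) and input DNA (Cy3) were hybridised to the same promoter array, and no mock-antibody array was analysed here, so the input is the background of every log2 ratio. The labels do not say whether arrays of a group came from separate cultures, so p-values measure the spread between arrays, which may be technical. Keratinocyte identity was not checked, since occupancy of promoters is not expression.

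Plakoglobin (γ-catenin) and β-catenin are armadillo-repeat proteins that tie cadherins to the cytoskeleton at cell-cell junctions and can also enter the nucleus, where they bind TCF/LEF transcription factors of the Wnt pathway. Divergent promoters are common in mammalian genomes. They mostly serve housekeeping genes such as those of DNA repair, the mitochondrial ribosome and the histone clusters, are usually rich in CpG, often hold ETS and NRF1 sites and seldom hold a TATA box.

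The promoters of 5 loci whose peaks recurred are printed first, since they show what such a region looks like. They are RefSeq sequences of build GRCm38.p6, from 250 bases before to 50 bases after the annotated start, read 5′ to 3′ on the strand of the gene. Capitals mark matches, on either strand, to 5 motifs: the TCF/LEF core CTTTGA, the ETS/GABP motif CCGGAAG, the NRF1 core GCATGCG, the CCAAT box (CCAAT) and the TATA box (TATAAA). Entpd1 (chr19:40612116-40612415, plus strand) and Ppil6 (chr10:41490189-41490488, plus strand) stand for loci with Plakoglobin peaks on all 3 arrays. Sf3b3 (chr8:110846754-110847053, minus strand) and Cog4 (chr8:110846350-110846649, plus strand) are the 2 sides of the locus with peaks on the most arrays. Gnpat (chr8:124862783-124863082, plus strand) and Coa8 (chr12:111713019-111713318, plus strand) stand for loci with β-catenin peaks on 2 arrays.
Entpd1: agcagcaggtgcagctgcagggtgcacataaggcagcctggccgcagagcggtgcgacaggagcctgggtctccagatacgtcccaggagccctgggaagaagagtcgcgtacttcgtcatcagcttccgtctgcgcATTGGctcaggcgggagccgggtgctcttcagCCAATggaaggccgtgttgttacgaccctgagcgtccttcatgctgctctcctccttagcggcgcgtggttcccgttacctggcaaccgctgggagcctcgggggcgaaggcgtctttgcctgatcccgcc
Ppil6: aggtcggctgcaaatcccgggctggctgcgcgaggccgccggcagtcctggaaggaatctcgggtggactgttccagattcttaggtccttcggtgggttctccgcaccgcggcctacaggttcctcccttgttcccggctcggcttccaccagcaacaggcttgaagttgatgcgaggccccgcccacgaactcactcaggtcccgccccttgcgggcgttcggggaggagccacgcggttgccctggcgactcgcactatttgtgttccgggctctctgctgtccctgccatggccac
Sf3b3: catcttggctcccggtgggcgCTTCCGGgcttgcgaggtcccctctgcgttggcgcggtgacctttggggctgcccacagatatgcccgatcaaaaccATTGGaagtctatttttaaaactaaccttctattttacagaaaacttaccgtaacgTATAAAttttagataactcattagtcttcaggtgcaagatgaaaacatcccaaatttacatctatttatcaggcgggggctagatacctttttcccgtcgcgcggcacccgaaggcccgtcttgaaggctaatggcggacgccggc
Cog4: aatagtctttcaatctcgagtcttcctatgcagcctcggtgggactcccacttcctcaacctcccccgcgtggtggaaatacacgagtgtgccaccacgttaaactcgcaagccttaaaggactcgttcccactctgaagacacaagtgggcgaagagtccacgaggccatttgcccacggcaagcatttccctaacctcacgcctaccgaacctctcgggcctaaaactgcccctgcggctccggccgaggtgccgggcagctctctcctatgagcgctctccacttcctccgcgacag
Gnpat: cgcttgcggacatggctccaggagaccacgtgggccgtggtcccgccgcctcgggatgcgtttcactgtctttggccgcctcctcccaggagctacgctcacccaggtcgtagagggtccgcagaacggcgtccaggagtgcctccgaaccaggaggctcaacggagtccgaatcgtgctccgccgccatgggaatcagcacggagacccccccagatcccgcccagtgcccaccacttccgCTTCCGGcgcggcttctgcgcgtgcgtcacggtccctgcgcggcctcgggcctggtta
Coa8: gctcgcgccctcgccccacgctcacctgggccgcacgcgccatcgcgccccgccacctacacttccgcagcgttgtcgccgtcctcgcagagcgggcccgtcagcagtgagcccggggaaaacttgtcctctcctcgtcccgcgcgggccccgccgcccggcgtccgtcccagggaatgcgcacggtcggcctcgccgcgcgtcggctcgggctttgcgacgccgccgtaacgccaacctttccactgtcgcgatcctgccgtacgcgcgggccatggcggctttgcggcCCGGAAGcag
Entpd1 holds 2 CCAAT boxes in opposite orientations. Gnpat and Coa8 each hold 1 ETS/GABP match, and Sf3b3 holds an ETS/GABP match, a CCAAT box and a TATA box. No letters of the 5 motifs occur in the printed windows of Ppil6 and Cog4. The TCF/LEF core is in none of these 6 windows, and no matches overlap each other. Among the promoters, not printed, of the other β-catenin loci described later, the core is in those of Jkamp and of Sclt1 with D3Ertd751e, whose windows overlap. The nearest start of another gene on the opposite strand lies 4 bp away for Gnpat, 13 bp for Coa8, 99 bp for Ppil6, 135 bp for Entpd1 and 203 bp for Sf3b3 and Cog4. For Gnpat, Coa8, Ppil6 and Entpd1 the minus-strand start lies to the left of the plus-strand start. For Sf3b3 and Cog4 the order is the other way in this build, so their transcripts overlap. Their 2 printed windows do not overlap and are not 1 shared promoter stretch.

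Across the genes at divergent peaks, promoters were richer in CpG and in the ETS motif than promoters in general, and poorer in the TATA box and the TCF/LEF core. Of 1202 genes named at divergent peaks, 986 had a promoter in the RefSeq table (82.0%). They are set here beside the 11875 genes of the table that are named on the array and, in the second place, beside all 27025 genes of the table. The median CpG ratio, observed over expected, was 0.849, against 0.641 and 0.384. The median GC content was 62.3%, against 58.0% and 52.7%. The ETS/GABP motif was in 28.6% of them, against 13.2% and 9.23%, and the NRF1 core in 6.90%, against 4.87% and 3.63%. The TATA box was in 5.58%, against 12.5% and 14.1%, and the TCF/LEF core in 8.52%, against 14.2% and 16.1%. The CCAAT box was in 40.7% of the promoters at Plakoglobin peaks and 39.3% of those at β-catenin peaks, against 38.4% and 37.8%. Apart from the ETS/GABP motif, these values were near those of the 2096 genes on the array that have a divergent neighbour in the RefSeq table whether or not a peak was called there. These had a median CpG ratio of 0.821, the ETS/GABP motif in 22.9%, the NRF1 core in 6.97%, the TATA box in 5.82% and the TCF/LEF core in 9.26%. By antibody, the ETS/GABP motif was in 26.2% of 745 promoters at Plakoglobin peaks and in 31.5% of 410 at β-catenin peaks, and the TCF/LEF core in 7.92% and 8.05%. By array the ETS/GABP shares overlapped, with 25.9%, 27.0% and 24.7% for Plakoglobin and 32.5%, 24.7% and 36.3% for β-catenin, and fewer than 80% of the genes had a promoter in the table for Plakoglobin 3, β-catenin 1 and β-catenin 2. Genes under peaks of both proteins are in both counts. The windows of 2 genes of a close pair overlap, so 1 site can count for both. The ETS/GABP match of Gnpat, for example, is also that of 2810004N23Rik. The same can occur among the 2096 genes with a divergent neighbour, but for a smaller part of all genes on the array. The genes nearest to the other peaks are not compared, since 77.8% of them had a promoter in the table, under the minimum of 80% set for such sets.

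The pairs were close. The closest pair of opposite starts of a locus lay a median of 218 bp apart (quartiles 124 and 366 bp). At 541 loci at least 1 pair was head to head, with the minus-strand start to the left of the plus-strand start, and at 95 the transcripts only overlapped. At 562 of the 591 loci with a name on both strands the genes differed, so these are mostly pairs of genes and not antisense starts of a single gene. Near the limit of the rule, 11 peaks had their closest pair at 900 to 1000 bp, with a median score of 2.88, and 18 peaks that were not taken had it at 1000 to 1100 bp, with a median score of 1.90. Accessions with several promoter sequences or positions, which can stand for near-identical copies, were part of 34 loci.

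Plakoglobin arrays carried more divergent peaks than β-catenin arrays on average, but with overlapping groups. The Plakoglobin arrays had 306, 161 and 139 divergent peaks, in the order of their numbers, and the β-catenin arrays had 54, 102 and 145. The highest β-catenin array thus exceeded the lowest Plakoglobin array. The means were 202 ± 90.7 and 100 ± 45.5 (SD, n = 3 each), and the difference of 102 peaks had p = 0.2 in the two-sided exact permutation test over arrays, whose smallest possible p is 0.1. The counts followed lists of very unequal length, which held 2524, 2684 and 1739 Plakoglobin peaks but 436, 330 and 1958 β-catenin peaks. When the 330 peaks of highest score were taken from each array, the order turned: the Plakoglobin arrays then held 44, 19 and 26 divergent peaks, fewer on average than the 32, 102 and 31 of the β-catenin arrays. That turn rested on β-catenin 2, whose whole list is 330 peaks: the difference was -25.3 peaks with it and -1.83 without it, an alternative chosen after seeing the data.

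As a share of each list, divergent peaks made up 12.1% (95% exact Clopper-Pearson interval 10.9% to 13.5%), 6.00% (5.13% to 6.96%) and 7.99% (6.76% to 9.37%) of the Plakoglobin peaks. For β-catenin the shares were 12.4% (9.44% to 15.8%), 30.9% (26.0% to 36.2%) and 7.41% (6.28% to 8.66%). These intervals cover counting error only. The array β-catenin 2 stood apart from the other 5. The group means were 8.71% ± 3.12 for Plakoglobin and 16.9% ± 12.4 for β-catenin, and the difference of -8.19 percentage points had p = 0.4 (exact permutation test, two-sided). Within array numbers the difference was -0.26 points for number 1, -24.9 for number 2 and 0.59 for number 3, and without β-catenin 2 it was -1.19 points. The peaks of β-catenin 2 had the weakest support in the authors' own terms, with a median false discovery rate of 0.15 over its divergent peaks against 0.00138 to 0.0311 on the other arrays. Of its 330 peaks 19 had a rate of at most 0.05, and 8 of these were divergent. Its peaks also lay closest to start sites, with 88.2% of them within 500 bp of a listed start against 50.3% to 76.8% on the other arrays. Among peaks within 500 bp of a start the share on β-catenin 2 was still 34.0%, against 7.54% to 15.6% on the others.

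**Figure D1:**
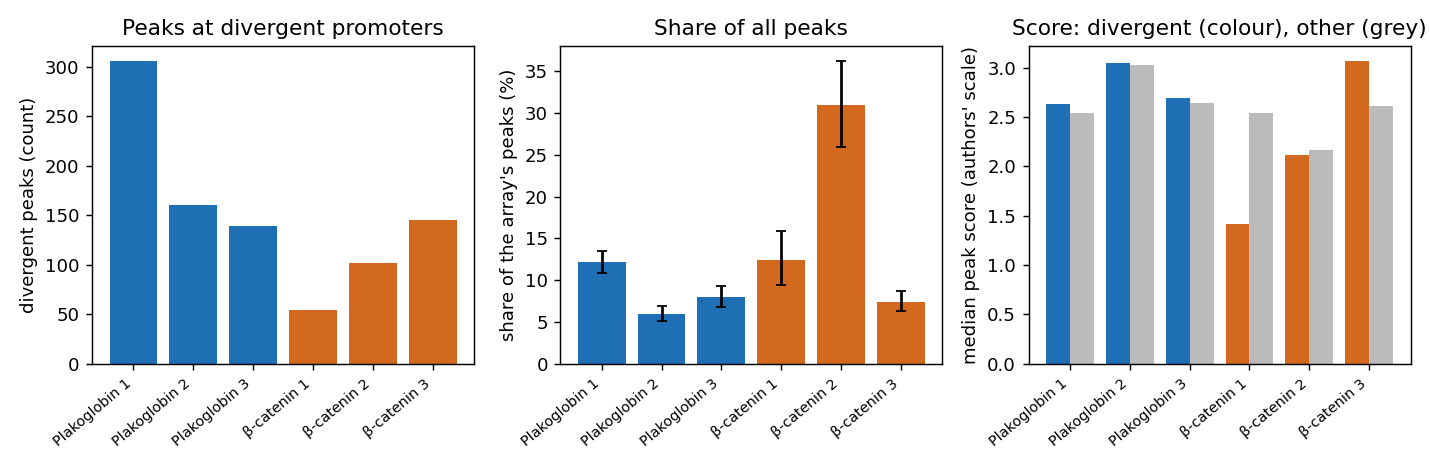
Divergent peaks by array (blue, Plakoglobin; orange, β-catenin): the count, the share of the array's peaks in percent with its 95% exact interval, and the median peak score on the authors' scale beside that of the other peaks (grey). The counts of the groups overlap, the share of 30.9% on β-catenin 2 exceeds the other 5 arrays, and the score of β-catenin 1 lies below that of its other peaks.

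Divergent peaks had about the same score as the other peaks of their array on most arrays. The score is the authors', of unstated scale. Median scores of divergent and other peaks were 2.63 and 2.54 on Plakoglobin 1, 3.05 and 3.03 on Plakoglobin 2, and 2.69 and 2.64 on Plakoglobin 3. For β-catenin they were 1.42 and 2.55 on array 1, 2.12 and 2.17 on array 2, and 3.07 and 2.61 on array 3. The within-array difference averaged -0.09 ± 0.54 (SD, n = 6 arrays), with 4 arrays above 0 and p = 0.906 in the exact sign-flip permutation test. Between antibodies the median score of divergent peaks was 2.79 ± 0.23 for Plakoglobin and 2.20 ± 0.83 for β-catenin (n = 3 each, exact permutation p = 0.4). Divergent peaks were wider than other peaks on 4 arrays and narrower on 1, with a mean difference of 36.3 ± 45.1 bp (n = 6, exact sign-flip permutation p = 0.188). A comparison of widths was added after the data were seen. The scores of both arrays numbered 3 were deposited with up to 6 decimals and those of the other 4 with at most 2, so lists of different numbers may not share a scale.

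The position of a peak relative to the pair varied between arrays of the same antibody. The median distance from the peak centre to the midpoint of its closest start pair was 307, 350 and 632 bp on the Plakoglobin arrays and 234, 107 and 669 bp on the β-catenin arrays. The arrays numbered 3 had the largest distances with either antibody. The means were 430 ± 177 bp and 337 ± 294 bp (n = 3 each, exact permutation p = 0.6), and the difference of 93.1 bp turned to -21.7 bp without β-catenin 2 and to -8.13 bp without Plakoglobin 3. The centre lay between the 2 starts in 26.1%, 24.2% and 14.4% of the divergent Plakoglobin peaks and in 31.5%, 56.9% and 18.6% of the divergent β-catenin peaks. A single peak covered both starts in 15.0%, 7.45% and 6.47% and in 18.5%, 49.0% and 6.90%. On β-catenin 2 most centres thus lay between the starts. On every other array most lay to a side of the pair, and the arrays numbered 3 had the lowest shares between the starts.

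**Figure D2:**
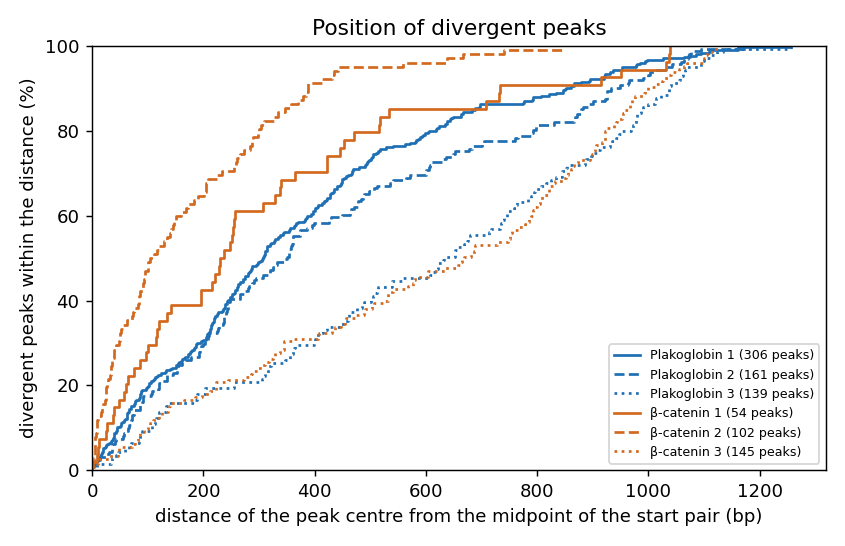
Cumulative share of divergent peaks (percent) by distance of the peak centre from the midpoint of the closest start pair (bp), with 1 line per array (blue, Plakoglobin; orange, β-catenin; solid, dashed and dotted for numbers 1, 2 and 3). The line of β-catenin 2 rises first, with a median of 107 bp, and the dotted lines of both arrays numbered 3 rise last and lie close together, with medians of 632 and 669 bp.

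Most divergent loci had a peak on a single array. This held for 438 of 636 loci (68.9%), and the highest number of arrays was 4, reached by 1 locus. Plakoglobin peaks were found at 477 loci, and 88 of them (18.4%) had peaks on at least 2 of the 3 Plakoglobin arrays, against 12.6% of the 5646 other start regions with a Plakoglobin peak. The 88 are 13.8% of all 636 divergent loci, and over all 7797 start regions with a peak of either protein, divergent or not, the same share was 10.3%. Peaks on all 3 Plakoglobin arrays were found at 4 divergent loci, which is 0.629% of the divergent loci, against 1.14% of all start regions and 1.19% of the other ones. β-catenin peaks were found at 270 loci, and 23 of them (8.52%) had peaks on at least 2 of the 3 β-catenin arrays, against 3.77% of the 2333 other start regions with a β-catenin peak. The 23 are 3.62% of all divergent loci, and over all start regions the share was 1.42%. Peaks of both proteins on at least 2 arrays each were found at 1 divergent locus of 636, where 0.257% of all start regions had them. That locus is 1.14% of the 88 and 4.35% of the 23, and for the other start regions the like shares were higher, at 2.66% and 21.6% (19 regions). At least 1 peak of each protein was found at 111 loci, which is 23.3% of the Plakoglobin loci and 41.1% of the β-catenin loci. For the other start regions the shares with at least 1 peak of each were 14.5% and 35.1%. A divergent locus spans several start sites by its definition, with a median of 4 start sites listed per divergent peak and 1 or 2 per other peak, so it can collect peaks from a longer stretch of DNA. Where the peaks of 2 arrays also had to overlap by at least 1 bp, the 88 loci fell to 35 and the 23 to 12.

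The peaks themselves overlapped rarely between arrays. Of the divergent peaks of an array, 1.38% to 14.9% (median 5.26%) overlapped any peak on another array of the same antibody. For the arrays of the other antibody with the same number this was 2.29% to 13.0% (median 6.04%), and with another number 0.621% to 10.8% (median 3.27%). Each share also depends on the length of the other array's list, which held from 330 peaks (β-catenin 2) to 2684 (Plakoglobin 2). The medians therefore do not measure an effect of antibody or number, which was not tested. The highest value was that of Plakoglobin 2 against Plakoglobin 1, where 24 of 161 divergent peaks overlapped. For other peaks the medians were 6.13%, 9.29% and 5.04% in the same order. Identical intervals were listed by 3 pairs of arrays' peaks within an antibody, 4 across antibodies with the same number and 2 across antibodies with different numbers, counting divergent peaks. Within an antibody they lay at Plcd3/Acbd4 and Poll/Dpcd on Plakoglobin 1 and 2 and at Xrcc3/Zfyve21 on Plakoglobin 2 and 3, named after their values were seen. At Tpcn1/Iqcd, where Tpcn1 encodes a channel of endosomes and lysosomes, Plakoglobin 1 and β-catenin 1 listed the very same interval, chr5:118081711-118081990, with scores of 3.23 and 3.82. At Ppip5k2/Gin1 the same was true of Plakoglobin 3 and β-catenin 3, at chr1:97660437-97660766 with scores of 1.56 and 4.88. Positions of peaks and start sites, here and at the loci named later, are as the authors deposited them, on a build that the sources used here do not name. It is not GRCm38, since 37 of 14372 file start sites lay within 1000 bp of the same gene's start in the RefSeq table.

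Median log2 ratios over whole promoters were high on the array that listed the peak and nearer the array median on the others. These ratios are the deposited mean over the probes of a promoter, ChIP over input, centred on the median of each array. At a locus they were averaged over the promoter sequences of its single-copy accessions, whichever the strand. At 556 loci the strands differed by a median of 0.10 (β-catenin 1) to 0.37 (Plakoglobin 2). A ratio given for a locus, here or later, thus need not hold for each of its genes. At loci with a divergent peak on an array, the median ratio on that same array was 0.54 to 0.96, which the peak call fixes. On another array of the same antibody the median at the same loci was -0.10 to 0.14. On the array of the other antibody with the same number it was -0.05 to 0.28, and on the remaining arrays -0.08 to 0.14. The highest of these was 0.28, read on Plakoglobin 2 at the 101 loci with peaks on β-catenin 2. At these 101 loci the median was above 0 on every other array. Between 72.3% (Plakoglobin 3) and 83.2% (β-catenin 3) of them were above 0 there. At the loci with peaks on any of the remaining arrays, 40.6% to 75.2% were above 0 on another array. At 351 loci with Plakoglobin divergent peaks and no listed β-catenin peak, the median ratios were 0.45, 0.09 and 0.07 on the Plakoglobin arrays and 0.03, 0.01 and 0.01 on the β-catenin arrays. At 150 loci with β-catenin divergent peaks and no listed Plakoglobin peak, they were 0.05, 0.44 and 0.18 on the β-catenin arrays and 0.07, 0.03 and 0.01 on the Plakoglobin arrays. A ratio of 0 is the median promoter of the array. Several arrays of the protein with the peaks were also near it, and β-catenin 1 lay below Plakoglobin 1 at the 150 loci. Peaks were part of the choice of these loci, so no test was made.

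**Figure D3:**
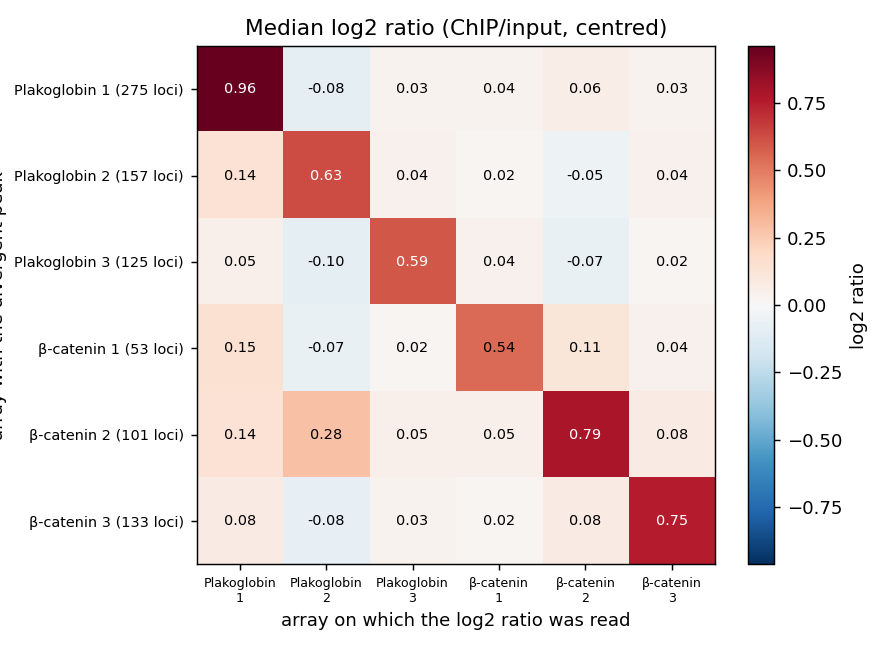
Median centred log2 ratio (ChIP over input) at the divergent loci with a peak on the array of the line, read on the array of the column; the number of loci is given beside each array. Values on the diagonal, fixed by the peak calls, are 0.54 to 0.96, and the others lie between -0.10 and 0.28.

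No promoter at a divergent locus passed the test across arrays. limma was run on all 26200 promoter sequences with a value, of which 1233 belong to divergent loci. For Plakoglobin against the array median 0 of 1233 had a Benjamini-Hochberg adjusted p under 0.05, where 0% of all promoters did, and the lowest adjusted p was 0.696. Without adjustment 37 were higher and 1 was lower at p under 0.05, which is 3.08% of the members against 3.78% of all promoters. For β-catenin 0 passed (0% of all), the lowest adjusted p was 0.894, and 10 were higher and 2 lower without adjustment, 0.973% of the members against 1.76% of all promoters. For the difference between the antibodies 0 passed (0% of all), the lowest adjusted p was 1.00, and 8 were higher with Plakoglobin and 0 with β-catenin without adjustment, 0.649% of the members against 0.729% of all promoters. Over all promoters, 429 were higher and 561 lower without adjustment for Plakoglobin, and 68 and 392 for β-catenin. For the difference, 149 were higher with Plakoglobin and 42 with β-catenin. The shares above therefore pool both directions. The median effect at divergent loci was 0.23 with Plakoglobin and 0.11 with β-catenin, against 0.05 and 0.01 over all promoters. That difference, and the direction of the counts against the array median, follow from choosing promoters with peaks on these arrays. The choice also favours the direction of the 8 and 0 between antibodies, since 477 divergent loci had Plakoglobin peaks and 270 had β-catenin peaks. That direction is therefore no evidence of a preference.

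Promoters of genes with a divergent neighbour in the RefSeq table, taken without regard to peaks, did not stand out from other promoters beyond the spread between arrays. There were 2230 such promoters among 12793 whose gene is in the table (17.4%). Their median log2 ratio minus that of the other 10563 was 0.07, -0.06 and 0.02 on the Plakoglobin arrays and 0.02, 0.05 and 0.02 on the β-catenin arrays. The mean difference was 0.02 ± 0.05 (SD, n = 6), above 0 on 5 of 6 arrays, with p = 0.281 in the exact sign-flip permutation test. Counted by the gene nearest to each peak, in a comparison added after the data were seen, such genes took 20.3%, 14.7% and 15.3% of the Plakoglobin peaks and 19.7%, 30.4% and 17.2% of the β-catenin peaks. Against the 17.4% of promoters the mean difference was 2.17 ± 5.75 percentage points (n = 6, 3 arrays above 0, exact sign-flip permutation p = 0.5). The value of β-catenin 2 was again the highest.

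The 4 single-copy loci with Plakoglobin peaks on 3 of 3 arrays had no listed β-catenin peak. Their choice by Plakoglobin peaks favours higher Plakoglobin ratios there, so separate groups at these loci are described and are no evidence of a difference. Rps27a encodes ubiquitin fused to a protein of the small ribosomal subunit, and its start faces that of Clhc1 (chr11:29443313-29443516). Its peak scores were 4.28, 2.65 and 4.15 on Plakoglobin 1 to 3. The centred log2 ratios there were 2.45, 0.27 and 0.66 with Plakoglobin, against -0.07, -0.20 and -0.04 with β-catenin, so every Plakoglobin array was above every β-catenin array. The 3 peaks did not overlap: they lay at chr11:29443087-29443587, 29443778-29444227 and 29442367-29442666, and the first covers both starts.

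Tctn3, a protein of the ciliary transition zone, and Entpd1 (CD39), which hydrolyses extracellular ATP, share the region chr19:39947908-39948704. Plakoglobin peaks scored 1.80, 3.47 and 1.11, and those of arrays 1 and 2 overlapped (39948444-39948643 within 39948354-39948933). The ratios were 0.93, 1.97 and 0.34 with Plakoglobin, against -0.08, -0.07 and -0.34 with β-catenin, and the groups did not overlap. The 2 CCAAT boxes of the printed Entpd1 promoter belong to this region. Smpd2, a neutral sphingomyelinase, faces Ppil6, of the cyclophilin family (chr10:41389107-41389244). Its peaks scored 2.14, 2.35 and 1.57, with ratios of 0.90, 0.06 and 0.48 against 0.07, 0.06 and 0.00 on the β-catenin arrays. The groups met here, since Plakoglobin 2 was no higher than β-catenin 1. The fourth locus, 4833408A19Rik with Nudt8, a nudix hydrolase (chr19:3789010-3789109), had scores of 2.10, 2.04 and 1.98 and ratios of 1.15, 0.11 and 0.41, against -0.00, -0.25 and -0.08 with β-catenin, again without overlap. At each of the 4 loci the SD over the Plakoglobin arrays was 0.42 to 1.16 around means of 0.48 to 1.13, and Plakoglobin 2 or 3 was the lowest.

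The locus with peaks on 4 arrays, and the only divergent one with peaks of both proteins on at least 2 arrays each, joins Sf3b3, a subunit of the splicing factor SF3B, with Cog4, a subunit of the Golgi tethering complex COG (chr8:110171491-110171938). Its closest pair of starts overlaps, and others of its pairs are head to head. Scores were 2.13 and 2.52 on Plakoglobin 1 and 2 and 0.62 and 2.29 on β-catenin 1 and 2. Both β-catenin peaks lay over the starts, at chr8:110171632-110172001 and 110171629-110172058, with false discovery rates of 0.199 and 0.15. The ratios were 1.28, 0.12 and -0.06 with Plakoglobin, against 0.11, -0.19 and -0.12 with β-catenin. Only Plakoglobin 1 was far from the array median, and the groups overlapped.

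β-catenin peaks on 2 arrays were found at 21 single-copy loci, of which 11, from the top of a ranking by the number of arrays and then by score, are described. None had divergent peaks on all 3 β-catenin arrays. Their choice by β-catenin peaks likewise favours higher β-catenin ratios, so separate groups there are no evidence of a difference. Gnpat, the enzyme that opens ether-lipid synthesis, faces 2810004N23Rik (chr8:124244636-124244762). Its peaks scored 2.14 on β-catenin 1 and 5.10 on β-catenin 3, and its ratios were 0.65, -0.33 and 0.88 with β-catenin against 0.20, -0.31 and 0.01 with Plakoglobin. Both arrays numbered 2 were low there. No Plakoglobin peak was listed at this locus.

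Ears2, the mitochondrial glutamyl-tRNA synthetase, faces Ubfd1 (chr7:109364700-109365110), with scores of 2.09 and 5.15 on β-catenin 2 and 3 and 2.19 on Plakoglobin 1. Its ratios were 0.08, 0.79 and 0.74 with β-catenin and 0.58, 0.38 and 0.01 with Plakoglobin, so the groups overlapped. Bag5, a co-chaperone of Hsp70, faces Coa8, an assembly factor of cytochrome c oxidase (chr12:106462812-106463104). Its peaks scored 0.59 and 2.34 on β-catenin 1 and 2 and overlapped (106462499-106462938 and 106462523-106462942). Ratios were 0.05, 0.61 and 0.34 against 0.40, 0.34 and -0.02, and the groups overlapped. Peaks that did not meet the divergent rule were also listed there, on the remaining β-catenin array and on 1 Plakoglobin array. Herc4, a ubiquitin ligase, with 1700120B22Rik also had overlapping peaks on β-catenin 1 and 2, with scores of 3.05 and 2.25 and ratios of 1.16, 0.27 and -0.16 against -0.01, -0.12 and -0.16. No pair of starts at the Herc4 locus is head to head, so the transcripts only overlap there. Mier1, a chromatin regulator, with Wdr78 had overlapping peaks on β-catenin 1 and 3 (3.09 and 3.45) and ratios of 0.93, 0.31 and 0.40 against 0.06, -0.00 and -0.03, so that all β-catenin arrays were above all Plakoglobin arrays.

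At 6 further loci the peaks of the β-catenin arrays scored between 0.65 and 4.88. Ppip5k2, an inositol pyrophosphate kinase, with Gin1 reached 4.88 on β-catenin 3 with ratios of 0.06, -0.02 and 1.19, against -0.01, -0.34 and 0.43 with Plakoglobin. Jkamp with L3hypdh had 0.65 and 4.23 on β-catenin 1 and 3 and ratios of 0.15, 0.52 and 1.25, against 0.16, 0.15 and 0.00. Parp12, an ADP-ribosyltransferase, with 4930599N23Rik had 3.30 and 1.82 on β-catenin 1 and 2 and ratios of 1.41, 0.84 and 0.00, against 0.11, 0.40 and -0.06. The groups overlapped at these 3 loci. Peaks on β-catenin 2 and 3 were shared by Rasal2, a Ras GTPase activator, with 2810025M15Rik (2.04 and 3.90), by Dph3, of diphthamide synthesis, with Oxnad1 (2.79 and 3.62), and by Sclt1, a centriole protein, with D3Ertd751e (2.16 and 4.24). In each of the last 3 the 2 intervals did not overlap. Ratios at Rasal2 were 0.11, 0.95 and 0.41 with β-catenin and 0.25, 0.53 and 0.07 with Plakoglobin. At Dph3 they were -0.14, 0.65 and 0.71 against -0.14, 0.14 and 0.02, and at Sclt1 0.04, 0.89 and 0.73 against 0.07, 0.28 and -0.05. The groups overlapped at all 3, with β-catenin 1 no higher than at least 1 Plakoglobin array at each. Of these 11 loci 9 had no divergent Plakoglobin peak, and Ears2/Ubfd1 and Ppip5k2/Gin1 had it on 1 array each. The multi-copy loci Fkbp15/Slc31a1 and Pcid2/Cul4a made up the rest of the 23.

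**Figure D4:**
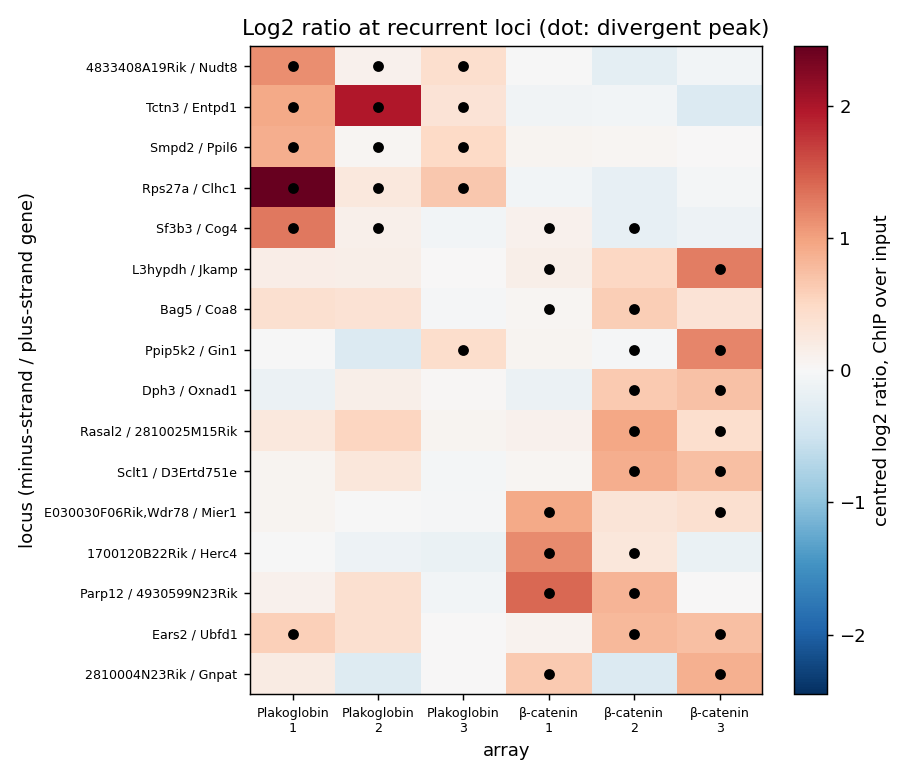
Centred log2 ratio (colour, ChIP over input) on each array at the 16 recurrent loci described, with dots where the array lists a divergent peak. The upper 4 loci have dots on all Plakoglobin arrays and no β-catenin dot, Sf3b3/Cog4 has 4 dots, and the lower 11 have 2 β-catenin dots each.

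The highest-scoring divergent peak differed on every array. On Plakoglobin 1 it lay at Rps18, of the small ribosomal subunit, with Vps52 (5.87), and the ratio was 4.51 there but -0.48 and -0.05 on the other Plakoglobin arrays. On Plakoglobin 2 it lay at Fam3a, opposite an unnamed start (5.69), with ratios of -0.04, 2.85 and -0.79 on Plakoglobin 1 to 3. On Plakoglobin 3 it lay at Pi4ka, a phosphatidylinositol 4-kinase, with Snap29, a SNARE protein (5.62), and ratios were 0.10, 0.85 and 2.93. The starts of Pi4ka and Snap29 are not head to head, and their transcripts only overlap. On β-catenin 1 the top peak lay at Tpcn1/Iqcd (3.82), where the ratio was 1.11 on β-catenin 1 and also 1.11 on Plakoglobin 1, and -0.72 and -0.71 on β-catenin 2 and Plakoglobin 2. On β-catenin 2 it lay at Jrk with 4933427E11Rik (3.45; ratios 0.07, 0.46 and 0.08), and on β-catenin 3 at Cops2, of the COP9 signalosome, with Galk2, a galactokinase-family enzyme (5.61; ratios 0.02, 0.09 and 1.12). None of these 6 peaks recurred on another array of its antibody.

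By gene function, the classes with the highest shares at divergent loci, apart from the 6 type IV collagens, were histones, mitochondrial ribosomal proteins and the respiratory chain, and the Wnt, keratin and keratinocyte differentiation classes had no member there. Of all 17345 named genes, 1202 (6.93%) lay at a divergent locus, 905 with a Plakoglobin peak and 512 with a β-catenin peak on at least 1 array. On at least 2 arrays of the antibody these numbers were 167 and 48. Counts per class depend on how many of its genes have a divergent neighbour, which was 13.8% of all named genes in the RefSeq table, 29.6% of histone genes, 31.4% of DNA repair genes, 31.3% of chaperones and 28.6% of RNA processing genes, and 2 genes of a pair count for the same peak. That neighbour share was 18.2% for replication and cell cycle, 15.9% for cytosolic ribosomal proteins, 15.3% for proteasome and ubiquitin and 12.5% for tRNA synthetases. No class was tested.

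Histone H2A and H2B genes are known to lie in head-to-head pairs. Of 71 histone genes 21 were at a divergent locus (29.6%), all 21 with a Plakoglobin peak and 6 with a β-catenin peak, and 8 with Plakoglobin peaks on at least 2 arrays. H2ac11 and H2bc11 (chr13:21423051-21423353) had scores of 4.12 and 2.73 on Plakoglobin 2 and 3 and 4.24 on β-catenin 3. Their ratios were -0.00, 0.43 and 0.20 with Plakoglobin, against -0.09, -0.40 and 0.49 with β-catenin, so the groups overlapped. Histone genes have near-identical copies, and the pairs H2ac23, H2ac24, H2bc3 and H2bc4 rest on multi-copy accessions, so their counts are uncertain.

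DNA repair genes lay at a divergent locus in 16 of 70 cases (22.9%), 13 with Plakoglobin and 4 with β-catenin. Of 55 replication and cell cycle genes 5 were at a divergent locus (9.09%), 4 with Plakoglobin and 2 with β-catenin. Among them Orc3, of the origin recognition complex, with Rars2, a mitochondrial arginyl-tRNA synthetase, scored 4.70 on Plakoglobin 1 and 0.62 on β-catenin 1.

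Of 73 mitochondrial ribosomal protein genes 20 were at a divergent locus (27.4%), 15 with Plakoglobin and 10 with β-catenin, and 37.0% of the class have a divergent neighbour in the RefSeq table. Mrpl46 and Mrps11 face each other and scored 4.03 on Plakoglobin 1 and 0.996 on β-catenin 3. Mrpl47 faces Ndufb5, of complex I, and scored 2.91 and 3.21 on Plakoglobin 1 and 2. The ratios there were 0.44, 0.02 and -0.01 with Plakoglobin, against -0.01, -0.28 and -0.02 with β-catenin, so Plakoglobin 2 was near its median. Of 77 genes of the respiratory chain and ATP synthase, assembly factors included, 19 were at a divergent locus (24.7%), 16 of them under Plakoglobin peaks, 8 under β-catenin peaks and 6 under Plakoglobin peaks on at least 2 arrays, where 28.6% of the class have a divergent neighbour. Cox4i1, a subunit of cytochrome c oxidase, with Emc8 scored 1.71 and 4.84 on Plakoglobin 2 and 3 and 2.49 on β-catenin 2. Its ratios were 0.24, 0.97 and 0.86 with Plakoglobin, against 0.04, 1.12 and 0.01 with β-catenin, and both arrays numbered 2 were high. Ndufaf5, an assembly factor of complex I, with Esf1 scored 4.26 on Plakoglobin 1 and 4.12 on β-catenin 3. Its ratios were -0.13, -0.90 and 0.30 with Plakoglobin, against -0.03, -0.63 and 2.54 with β-catenin. On Plakoglobin 1 the promoter ratio was thus below the array median despite the peak.

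RNA processing genes lay at a divergent locus in 29 of 147 cases (19.7%), 20 with Plakoglobin and 19 with β-catenin. Besides Sf3b3, Cpsf4, a subunit of the mRNA cleavage and polyadenylation factor, with Ptcd1 had peaks on 3 arrays, with scores of 3.05 and 4.12 on Plakoglobin 1 and 2 and 1.63 on β-catenin 3. Its ratios were 2.24, 1.83 and -0.09 with Plakoglobin against 0.15, -0.13 and 0.31. Cytosolic ribosomal protein genes were at 7 of 69 (10.1%), 7 with Plakoglobin and 2 with β-catenin. Rpl9 with Lias, lipoic acid synthetase, scored 4.04 and 3.63 on Plakoglobin 2 and 3 and 3.69 on β-catenin 3. Of 32 tRNA synthetase genes 6 were at a divergent locus (18.8%), 6 with Plakoglobin and 4 with β-catenin. Hars and Hars2, the cytosolic and mitochondrial histidyl-tRNA synthetases, face each other and scored 2.63 on Plakoglobin 3 and 3.38 on β-catenin 3.

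Chaperones were at 15 of 80 (18.8%), 10 with Plakoglobin and 9 with β-catenin. Hspa1l with Hspa1a and Hspa1b, the inducible Hsp70 genes, scored 2.55 and 2.69 on Plakoglobin 1 and 2 and 1.94 on β-catenin 3, and since Hspa1a and Hspa1b are near-identical copies the value cannot be given to either. The ratios at this locus were 0.41, -0.13 and -0.04 with Plakoglobin, against -0.00, -0.87 and 0.31 with β-catenin. On Plakoglobin 2 the ratio was below the array median despite the peak. Proteasome and ubiquitin genes were at 11 of 131 (8.40%), 8 with Plakoglobin and 3 with β-catenin. The type IV collagens Col4a3 and Col4a4, a known head-to-head pair of basement membrane genes, had a peak on 1 Plakoglobin array and none with β-catenin.

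Of the classes that fit the cells, few members were at a divergent locus. Of 31 cell junction genes 1 was, Pkp4, which encodes plakophilin 4, an armadillo protein of junctions, and shares its promoter with Ccdc148 (chr2:59099263-59099657). It scored 4.97 on Plakoglobin 3 and 2.04 on β-catenin 2, and the ratios were 0.16, 0.46 and 1.16 with Plakoglobin, against 0.08, 1.15 and 0.09 with β-catenin, so the groups overlapped. None of 48 Wnt pathway genes, 32 keratinocyte differentiation genes and 44 keratins was at a divergent locus, although 18, 15 and 18 of them had a peak of some kind. In that table of RefSeq genes, 7, 3 and 2 of them have a divergent neighbour, so few could have been counted. Over all 17345 named genes, 7647 had a peak of some kind. Olfactory receptor genes, silent in skin, were at 1 of 945 (0.106%), which was Olfr56. Of these 945 genes 1 has a divergent neighbour in the RefSeq table, so here too few could have been counted. A peak of some kind was listed for 337 of the 945.

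**Figure D5:**
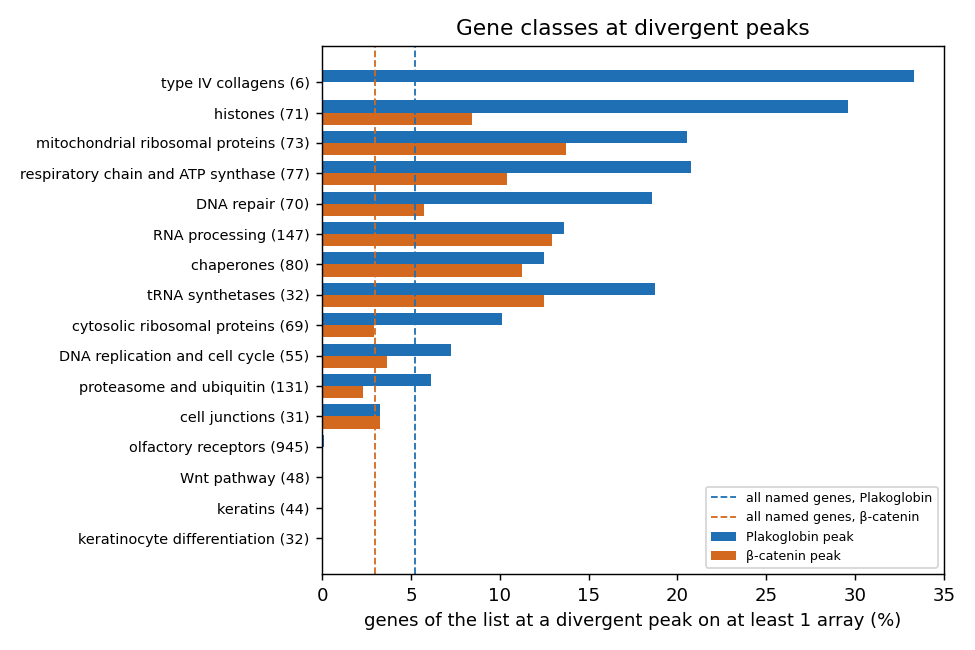
Share of each gene class (percent of its named genes, number in brackets) at a divergent locus with a Plakoglobin peak (blue) or a β-catenin peak (orange) on at least 1 array; dashed lines give the same shares over all 17345 named genes. Histone and mitochondrial classes lie above both lines, as do DNA repair, replication and cell cycle, chaperones, RNA processing and tRNA synthetases. The Wnt pathway, keratin and keratinocyte differentiation classes have no bar.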

How the data were processed

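Per the file headers, the authors' peak lists came from NimbleGen's peak algorithm, 1 list per array. Each peak has the authors' score, of unstated scale, and a false discovery rate, which is a q-value the authors deposited and which reaches 0.199. Per the file headers, the deposited promoter tables hold log2 ratios of ChIP over input, as mean and median over the probes of a promoter sequence. Their normalization, and the genome build, are not given in the sources used here. Of 26275 sequences 75 had no value. Array precision is limited by the number of arrays.

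Peaks were counted once however many accessions listed them. Position was measured from the pair whose midpoint was closest to the peak centre. Names came from the RefSeq table by accession (12527 sequences), symbol (1710), synonym (1795) or the files (815), and 9428 stayed unnamed. Groups were compared by exact permutation over arrays, and divergent with other peaks by exact sign flips of within-array differences (smallest p 0.0312). Ratios were median-centred and fitted in R 4.3.3 by limma 3.58.1 with a trended eBayes step, and p-values were adjusted by Benjamini-Hochberg over 26200 sequences. Pair finding and the fit were tested on simulated data. Other steps used Python 3.11.15 with networkx 3.6.1, scipy 1.17.1, pandas 2.3.3, matplotlib 3.10.9 and numpy 2.4.6.

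Deviations from the group means correlated between arrays of the same number at 0.20, 0.23 and 0.22 and between the others at -0.15 to -0.05, so the numbers were taken as pairs and a replicate block was run as an alternative. Its basis is this check, since the labels give only the number.

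The members, gene lists and named loci were chosen with earlier results of these data known. Named were loci with Plakoglobin peaks on 3 arrays, the 12 highest-ranked with β-catenin peaks on at least 2, those with both, the top peak of each array, and the 2 members per class on the most arrays. Some loci that this rule names are not reported here.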

Additional observations from a re-analysis of the deposited data

How the results depend on the processing

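Of 122 recomputed values 94 kept their direction (counts of loci stayed within 1.5 times), 7 changed sign and 21 moved, and the cause was not tested. Some of the 94 could not change. Leaving out an array of 1 antibody cannot alter the recurrent loci of the other, and the replicate block keeps the mean difference. Limma counts of 0 were also taken as kept. The exact tests of 3 against 3 arrays and of 3 pairs could not reach 0.05, so they say nothing about stability. With an equal number of top-score peaks per array the difference in divergent peaks turned to -25.3 (-1.83 without β-catenin 2 as well, chosen after seeing the data), the mean score difference between divergent and other peaks to 0.098, and the recurrent loci fell to 1 (Plakoglobin), 7 (β-catenin) and 0 (both). At a false discovery rate of at most 0.05 these were 46, 4 and 0, and the score difference was 0.079. Where peaks had to overlap by 1 bp the loci numbered 35, 12 and 1, and by 50% of the shorter peak 25, 7 and 0. With the replicate block the differences were 102 peaks (p = 0.5), -8.19 percentage points (p = 0.75), 0.59 in score (p = 0.5) and 93.1 bp (p = 0.5) in the exact sign-flip test over 3 pairs, whose smallest p is 0.25, and limma called 0 promoters (10 at an unadjusted p under 0.05).

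Leaving out each array in turn gave ranges of 49.7 to 133 for the count difference, -12.9 to -1.19 points for the share, 0.196 to 1.02 for the score and -21.7 to 259 bp for the distance, which turned to -8.13 without Plakoglobin 3 and -21.7 without β-catenin 2. The divergent minus other score ranged from -0.204 to 0.113, the last without β-catenin 1. Recurrent loci numbered 22 to 88 for Plakoglobin (22, 27 and 47 without array 1, 2 or 3), 5 to 23 for β-catenin (9, 5 and 9) and 0 to 1 for both. The values 88 and 23 are the unchanged counts when an array of the other antibody was left out. Without an array of the same antibody, both remaining arrays had to list the locus. The RefSeq-neighbour difference was 0.011 to 0.038, and limma called 0 to 0. Restricting to peaks within 500 bp of a start, chosen after seeing the data, gave 75.3 peaks and -8.16 points. With 3 arrays a group, differences of the observed spread could not be told from 0.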
